A study of Mus musculus with 9 samples.

Results

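The 10 genes described here encode the leukemia inhibitory factor (LIF), endothelin-2, and STAT3 stress response of the retina. They are the ligand genes Lif, Edn2, and Fgf2, the receptor genes Lifr, Ednrb, Osmr, and Il6st, the transcription factor genes Stat3 and Cebpd, and the inhibitor gene Socs3. They were chosen by name from 54532 genes in the count table, with earlier results of these data known, and each name matched 1 row. All 10 passed the filter on low counts, which kept 17540 genes. The retinas of 9 wild-type C57BL/6 mice were sequenced at P17, and 3 groups of 3 mice each were compared. Control mice, labelled Control+DMSO, were raised in room air. In oxygen-induced retinopathy (OIR), young mice are kept in high oxygen, which closes the central retinal vessels, and the return to room air at P12 leaves the inner retina ischemic. OIR mice, labelled Hypoxia+DMSO, and treated OIR mice, labelled Hypoxia+32-134D (70 ng), differ in a single intraocular injection at P12 of vehicle or of 32-134D, the study's inhibitor of hypoxia-inducible factors. A protocol label gives the injected solution as 70 ng/µl. Whether control mice were injected is not given in the sources used here beyond the DMSO of their label, so a group difference from control also holds any difference in handling. Mice are called by their label numbers, which are 1, 6, and 7 (control), 3, 5, and 6 (OIR without inhibitor), and 2, 5, and 10 (OIR with inhibitor, called treated OIR). The 3 treated OIR mice and 3 OIR mice are each compared with the same 3 controls, and those 2 comparisons share them.

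When photoreceptors are injured or short of oxygen, they are known to raise endothelin-2, and a subset of Müller glia raises LIF. LIF binds its receptor subunit, encoded by Lifr, together with the shared subunit gp130, encoded by Il6st, and the pair activates JAK kinases that phosphorylate STAT3. STAT3 then raises its own gene and those of OSMR, C/EBPδ, and SOCS3, and SOCS3 blocks the JAK kinases in turn. Endothelin-2 acts through the endothelin B receptor, encoded by Ednrb, which is found on glia and vessels. FGF2 is a growth factor that protects photoreceptors and rises in the stressed retina.

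The sequences before the RefSeq start of both secreted triggers and of the feedback inhibitor are shown as examples. The order of the treated OIR mice was the same for all 10 genes, so it does not single these out. The sequences are RefSeq windows of build GRCm38.p6, printed 5′ to 3′ up to the first annotated exon, with matches to 3 motifs in capitals. The motifs were TTCNNNGAA (STAT), ACGTG or GCGTG (the core of HIF sites), and TGACTCA (AP-1), each searched on both strands, so that CACGC is a HIF core read from the other strand. ACGTG and its reverse can overlap within CACGTG, and no 2 matches printed here overlap.
Lif, chr11:4257318-4257556, + strand: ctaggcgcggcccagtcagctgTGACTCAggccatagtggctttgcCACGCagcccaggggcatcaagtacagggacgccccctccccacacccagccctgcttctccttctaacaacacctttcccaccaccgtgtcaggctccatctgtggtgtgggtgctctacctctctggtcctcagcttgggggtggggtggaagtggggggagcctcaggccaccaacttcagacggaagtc
Edn2, chr4:120160956-120161205, + strand: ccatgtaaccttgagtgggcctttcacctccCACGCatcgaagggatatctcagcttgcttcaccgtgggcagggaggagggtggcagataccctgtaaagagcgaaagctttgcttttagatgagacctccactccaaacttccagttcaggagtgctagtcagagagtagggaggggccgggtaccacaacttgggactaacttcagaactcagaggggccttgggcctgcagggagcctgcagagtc
Socs3, chr11:117969452-117969616, - strand: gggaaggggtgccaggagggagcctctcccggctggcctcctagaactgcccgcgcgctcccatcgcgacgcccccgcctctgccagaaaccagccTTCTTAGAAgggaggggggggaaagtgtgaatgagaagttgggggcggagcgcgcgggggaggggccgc
The Lif window held TGACTCA from 228 to 222 bases and CACGC from 204 to 200 bases before the RefSeq start. The Edn2 window held CACGC from 219 to 215 bases before its start, and the Socs3 window held TTCTTAGAA from 154 to 146 bases before its start. The Socs3 stretch lies before the RefSeq start but inside the annotated span of the gene, in an intron of a longer noncoding transcript. Windows of 250 bases were found for 9 of the 10 genes (10 windows, 2 of them for Lifr). The STAT motif was in 1 of the 10 windows and in 7.02% of 32851 windows of all genes. A HIF core was in 5 of the 10, those of Lif, Edn2, Fgf2, Lifr, and Ednrb, and in 38.6% of all windows. The AP-1 motif was in 1 of the 10 and in 4.46% of all windows. A match is only a run of letters in this window.

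Between OIR and control, the fitted level was higher in OIR for all 10 genes, and for 9 of them the lowest OIR mouse exceeded the highest control mouse. Across all genes tested, 15.9% were higher in OIR without overlap. The median log2 fold change of the 10 genes was 1.42, from 0.49 for Lifr to 2.46 for Fgf2, and the median of all 17540 genes was 0.03. None of the 10 passed an adjusted p of 0.05 in edgeR's quasi-likelihood fit of all 9 mice, in which 165 genes (0.941%) passed. At an unadjusted p below 0.05 there were 7 of the 10, against 23.8% of all genes. Other fits called more of them. DESeq2 called 8 of the 10 on the 6 mice of the 2 groups and 6 on all 9 mice, while edgeR on the 2 groups and limma-voom called 6 each. All of these calls were higher in OIR. The share of all genes called higher was 5.64% in DESeq2 on the 2 groups, 4.36% in DESeq2 on all 9 mice, 2.88% in edgeR on the 2 groups, and 5.23% in limma-voom.

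**Figure D1:**
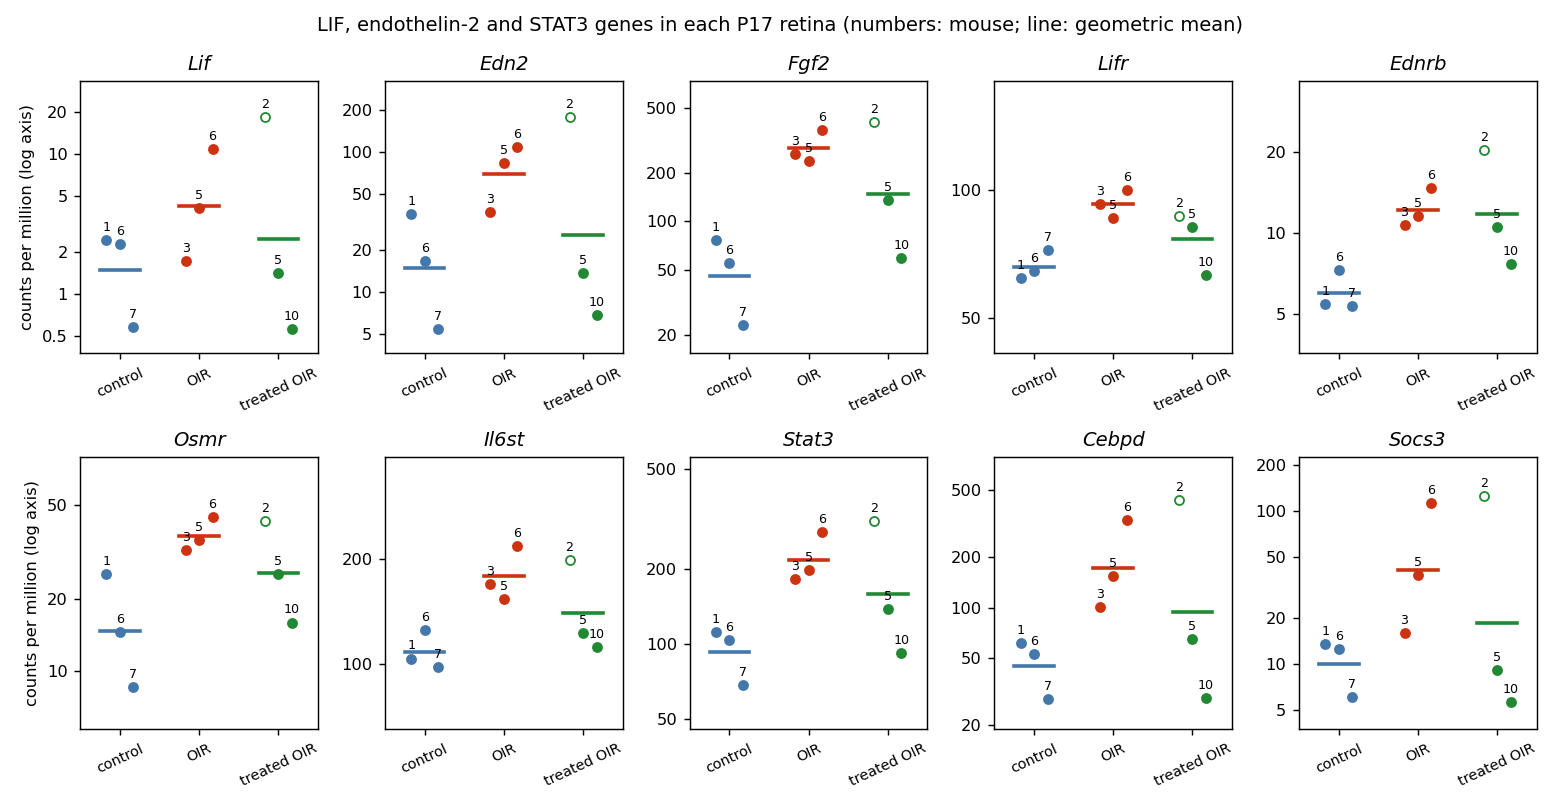
CPM (counts scaled to a library total of 1000000) on a log axis of the 10 genes in each retina, by group, with the mouse number above each point and a line at the geometric mean of the 3 mice. The open circle is treated OIR mouse 2, which lies highest of its group in all 10 panels, while treated OIR mouse 10 lies lowest.

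Depth was 16028731 to 27213184 counts per mouse, and 1 library stood apart. Crystallin genes, which the lens makes in bulk, made up 15.8% of counts in treated OIR mouse 2 and at most 0.186% elsewhere. This retina sample thus carried lens transcripts, and the group comparisons that rest on it are given with and without it. It was set apart for its crystallin share and not for the level of any of the 10 genes. The rod and cone markers were high in all 9 retinas, at a summed 38218 to 70518 CPM. In whole tissue, fewer cells of a type and less RNA per cell cannot be told apart.

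Lif (chr11:4257557-4272514 on GRCm38) had the fewest counts of the 10 genes. Its values in CPM, which are counts scaled to a library total of 1000000 after TMM adjustment, were 2.41, 2.28, and 0.58 for control mice 1, 6, and 7 and 1.71, 4.10, and 10.8 for OIR mice 3, 5, and 6. Treated OIR mice 2, 5, and 10 had 18.4, 1.41, and 0.565 CPM. These rest on 9 to 290 counts. OIR mouse 3 lay within the control range, so that Lif was the 1 gene of the 10 whose OIR and control mice overlapped. The log2 fold change was 1.63 ± 1.18 (SE, n = 3 mice per group) between OIR and control, with an adjusted p of 0.434 in edgeR.

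Edn2 (chr4:120161206-120167360), the endothelin gene of stressed photoreceptors, was at 36.0, 16.7, and 5.48 CPM in control mice 1, 6, and 7, at 37.3, 83.4, and 109 CPM in OIR mice 3, 5, and 6, and at 179, 13.7, and 6.84 CPM in treated OIR mice 2, 5, and 10. OIR mouse 3 and control mouse 1 were nearly level, while the 3 control mice spanned 6.57-fold. On the log2 scale the fold change between OIR and control was 1.96 ± 1.12 (edgeR, adjusted p = 0.319).

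Fgf2 showed the largest difference of the 10 genes. It was at 77.1, 55.5, and 23.0 CPM in control mice 1, 6, and 7, and at 259.6, 236, and 365 CPM in OIR mice 3, 5, and 6. Treated OIR mice 2, 5, and 10 had 408, 135, and 59.3 CPM. All OIR mice thus lay above all control mice with a wide gap, and the group means were 287 ± 68.6 and 51.9 ± 27.2 CPM (SD, n = 3). The log2 fold change was 2.46 ± 0.67, or 5.52-fold, with an adjusted p of 0.0874 in edgeR and 6.01e-05 in DESeq2 on the 2 groups. In edgeR without the filter on low counts, Fgf2 was the 1 gene of the 10 that was called (adjusted p = 0.0411). The share of all genes called in that fit is not given here, so this count has no background beside it. Fgf2 and Stat3 are among genes that the study itself picked for their rise in these same mice, so their direction is not independent evidence. The other members were also chosen with earlier results of these data known, so their direction is not independent evidence either. Fgf2 (chr3:37348346-37410108, + strand) overlaps 4 annotated genes, among them Nudt6 and the antisense gene Fgf2os on the opposite strand. Whether counting used strand is not given in the sources used here, so reads of these genes may not be told apart. Fgf2os itself had 13.8, 7.33, and 2.90 CPM in control mice 1, 6, and 7, and 32.1, 44.6, and 67.0 CPM in OIR mice 3, 5, and 6. Its levels were 99.5, 13.3, and 5.60 CPM for treated OIR mice 2, 5, and 10, and its order was that of Fgf2 in control and treated OIR mice but not in OIR mice, where mice 3 and 5 changed places.

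Among the receptor genes, the differences were smaller and so was the spread. Lifr (chr15:7090614-7197489), the LIF receptor subunit, was at 62.0, 64.5, and 72.1 CPM in control mice 1, 6, and 7 and at 92.6, 85.7, and 100.1 CPM in OIR mice 3, 5, and 6. The gap was narrow, but the SD in each of these groups was only 0.11 on the log2 scale. The log2 fold change of 0.49 ± 0.13 (1.40-fold) had the smallest p of the 10 genes in edgeR, 0.00442, and an adjusted p of 0.0845.

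Il6st (chr13:112464070-112510086), which encodes gp130, was at 104, 125, and 98.3 CPM in control mice 1, 6, and 7, and at 169, 154, and 217 CPM in OIR mice 3, 5, and 6. The groups did not overlap, and the log2 fold change was 0.72 ± 0.23 (edgeR, adjusted p = 0.110). Osmr (chr15:6813577-6874969), the oncostatin M receptor subunit that pairs with gp130, was at 25.6, 14.6, and 8.57 CPM in control mice and at 32.3, 35.5, and 44.2 CPM in OIR mice, again without overlap. Osmr differed by a log2 fold change of 1.19 ± 0.42 (edgeR, adjusted p = 0.140). Ednrb (chr14:103814625-103844402), the endothelin B receptor, was at 5.41, 7.28, and 5.35 CPM in control mice and at 10.7, 11.5, and 14.7 CPM in OIR mice. Its log2 fold change was 1.03 ± 0.34, or 2.05-fold (edgeR, adjusted p = 0.123). All 4 receptor genes were called by DESeq2 on the 2 groups, with adjusted p values from 0.000424 for Il6st to 0.00326 for Lifr.

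Stat3 (chr11:100885098-100939540), the transcription factor that gp130 activates, was at 112, 104, and 68.7 CPM in control mice 1, 6, and 7 and at 182, 197, and 279.6 CPM in OIR mice 3, 5, and 6. The groups did not overlap, and the log2 fold change was 1.21 ± 0.41 (2.31-fold; edgeR, adjusted p = 0.126; DESeq2 on the 2 groups, adjusted p = 1.36e-06). Cebpd (chr16:15887286-15891031), a transcription factor induced by STAT3 and by inflammation, was at 61.2, 52.6, and 28.4 CPM in control mice and at 101, 154, and 331 CPM in OIR mice. OIR mouse 6 was 3.29-fold above OIR mouse 3, and the log2 fold change was 2.04 ± 0.90 (edgeR, adjusted p = 0.208). Stat3 overlaps Stat5a, and Cebpd overlaps Spidr, on opposite strands.

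Socs3 (chr11:117966079-117970047), the feedback inhibitor, spread most among OIR mice. It was at 13.5, 12.4, and 6.00 CPM in control mice 1, 6, and 7 and at 15.8, 38.1, and 113 CPM in OIR mice 3, 5, and 6. OIR mouse 3 lay just above control mouse 1, and OIR mouse 6 was 7.14-fold above OIR mouse 3. Its log2 fold change was 2.37 ± 1.14, with a 95% interval from -0.21 to 4.95 (edgeR, adjusted p = 0.244; DESeq2 on the 2 groups, adjusted p = 0.0296).

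The 9-mouse fit estimates 1 spread per gene from all groups, including treated OIR. Without treated OIR mouse 2, the SE of Socs3 between OIR and control fell from 1.14 to 0.63, that of Cebpd from 0.90 to 0.48, and that of Edn2 from 1.12 to 0.60, while the log2 fold changes were 2.34, 2.01, and 1.93. In that fit edgeR called 7 of the 10 genes higher in OIR, against 3.95% of 18116 genes. The 7 were Fgf2, Lifr, Ednrb, Il6st, Stat3, Cebpd, and Socs3, and their adjusted p values ranged from 0.00953 for Fgf2 to 0.0397 for Socs3. Osmr, Edn2, and Lif had adjusted p values of 0.0626, 0.0682, and 0.170.

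Between treated OIR and control, the question was how far these genes lay from control after 32-134D. The fitted levels were higher in treated OIR for all 10 genes, with a median log2 fold change of 1.43 beside 0.01 for all genes. That median rested on treated OIR mouse 2: without it the median was 0.13, with 6 genes higher and 4 lower. None of the 10 passed in edgeR, in which 4 genes (0.0228%) passed. At an unadjusted p below 0.05 there were 3 of the 10, Fgf2, Ednrb, and Stat3, against 18.6% of all genes. DESeq2 on all 9 mice called Ednrb alone, against 4.8% of all genes. DESeq2 on the 2 groups, edgeR on the 2 groups, and limma-voom called none of the 10, against 2.21%, 0.0%, and 5.28% of all genes. Only Ednrb had every treated OIR mouse above every control mouse, against 12.8% of all genes. Its values were 20.3, 10.5, and 7.66 CPM in treated OIR mice 2, 5, and 10, with a log2 fold change of 1.09 ± 0.34 (edgeR, adjusted p = 0.175). Without mouse 2 the log2 fold change of Ednrb was 0.60 ± 0.24, with an adjusted p of 0.316.

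**Figure D2:**
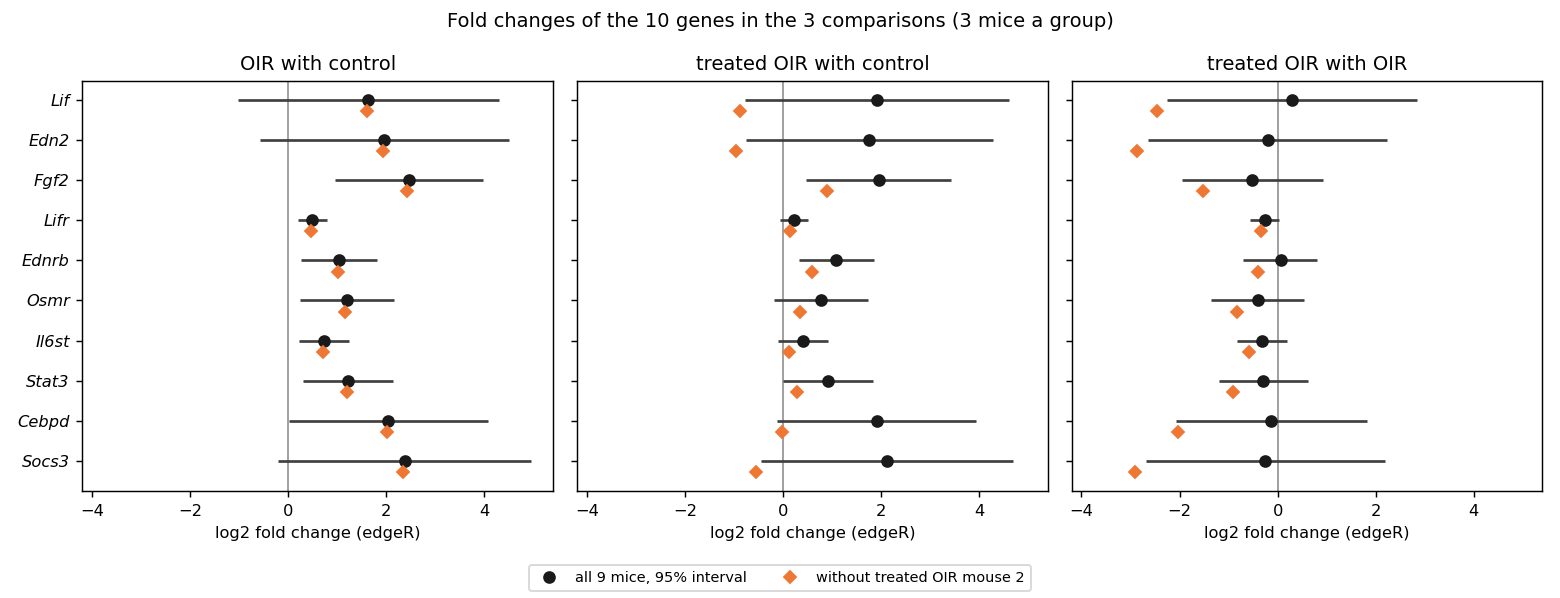
Log2 fold changes of the 10 genes in the 3 comparisons from edgeR, with 3 mice a group. Black circles and bars are the fit of all 9 mice with its 95% interval, and orange diamonds are the fit without treated OIR mouse 2, which leaves the OIR comparison with control nearly in place and moves both treated comparisons to the left.

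Between treated OIR and OIR, which asks what the inhibitor changed, no gene at all passed in edgeR (0.0% of 17540 genes, with 823 genes, 4.69%, at an unadjusted p below 0.05). DESeq2 on the 2 groups called 73 of 16926 genes (0.431%) and limma-voom 1 of 17540 (0.0057%), and neither called any of the 10. None of the 10 had an unadjusted p below 0.05 in edgeR, and none had all treated OIR mice below all OIR mice, against 5.39% of all genes. The log2 fold changes ran from -0.52 for Fgf2 to 0.29 for Lif, with a median of -0.26. The intervals were wide. For Socs3 the log2 fold change was -0.25 with a 95% interval from -2.68 to 2.18, and for Edn2 it was -0.20 with an interval from -2.64 to 2.23. The narrowest interval was that of Lifr, from -0.56 to 0.03 around -0.26.

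The 3 treated OIR mice did not lie together. Mouse 2 was the highest of its group for all 10 genes and mouse 10 the lowest, an order held by 22.6% of all genes. Treated OIR mouse 2 lay above every OIR mouse for 7 of the 10 genes, against 27% of all genes and 36.5% of the 2782 genes whose OIR mice all lay above all control mice. Its Cebpd was at 440.3 CPM, its Stat3 at 310.3 CPM, its Socs3 at 126 CPM, its Il6st at 199 CPM, and its Osmr at 42.6 CPM. Osmr, Il6st, and Lifr were the 3 genes for which mouse 2 lay within the OIR range.

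Treated OIR mice 5 and 10 both lay below every OIR mouse for all 10 genes, a position held by 17.1% of all genes and by 43.9% of the 2782 genes whose OIR mice all lay above all control mice, as 9 of the 10 did. Their Stat3 was at 138 and 92.2 CPM, their Il6st at 123 and 112 CPM, their Osmr at 25.6 and 16.0 CPM, and their Lifr at 81.7 and 63.2 CPM. Cebpd was at 65.1 and 28.8 CPM and Socs3 at 9.02 and 5.60 CPM in these mice. In mouse 10, 2 of the 10 genes, Socs3 and Lif, were below every control mouse, against 26.6% of all genes and 5.57% of those 2782. Both lay close to control mouse 7. Lif was at 0.565 against 0.58 CPM (11 and 9 counts) and Socs3 at 5.60 against 6.00 CPM. Mouse 10 was at or below the highest control mouse for 9 of the 10 genes, against 71.8% of all genes and 31.8% of those 2782. Mouse 5 was at or below the highest control mouse for 5 of the 10, against 72.3% and 27.7%.

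Without treated OIR mouse 2, all 10 genes were lower in treated OIR than in OIR, with a median log2 fold change of -1.22 beside 0.01 for all genes. The log2 fold changes were -2.90 ± 0.76 for Socs3, -2.87 ± 0.75 for Edn2, -2.47 ± 0.87 for Lif, -2.03 ± 0.56 for Cebpd, -1.53 ± 0.50 for Fgf2, and -0.90 ± 0.27 for Stat3. In edgeR none of the 10 passed, with adjusted p values from 0.202 to 0.559, and no gene of 18116 passed. At an unadjusted p below 0.05 edgeR had 8 of the 10 lower, against 4.69% of all genes. DESeq2 on the 2 groups without this mouse, a fit added after the data were seen, called 6 of the 10 lower, against 1.96% of 17524 genes. The 6 were Lif, Edn2, Fgf2, Osmr, Il6st, and Stat3, with adjusted p values from 0.00165 for Edn2 to 0.0437 for Fgf2. With 2 treated mice left, the call depends on the tool, and lens RNA and any other difference of mouse 2 cannot be told apart.

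The order of the mice within a group was shared by many of the 10 genes. OIR mouse 6 was the highest of its group for all 10, against 34.1% of all genes, and OIR mouse 3 the lowest for 7, also against 34.1%. Control mouse 1 was the highest for 7 and control mouse 7 the lowest for 9, against 31.4% and 31.7% of all genes. The SD of log2 CPM over the 10 genes had a median of 0.61 for controls, 0.33 for OIR, and 1.14 for treated OIR. Over all genes these medians were 0.21, 0.21, and 0.25. Within treated OIR, the highest mouse was 32.5-fold above the lowest for Lif, 26.2-fold for Edn2, and 22.4-fold for Socs3, but 1.38-fold for Lifr.

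Several marker lists moved with this order in part. The summed photoreceptor markers were at 45772, 53550, and 70518 CPM in control mice 1, 6, and 7 and at 59878, 48634, and 38218 CPM in OIR mice 3, 5, and 6, which is the reverse of the order of Edn2 in both groups. In treated OIR mice 2, 5, and 10 they were at 44049, 59391, and 51195 CPM, lowest in mouse 2 but not in full reverse order. The summed microglia markers were at 208, 126, and 59.4 CPM in control mice and at 125, 162, and 226 CPM in OIR mice, in the order of Edn2. In treated OIR mice 2, 5, and 10 they were at 75.4, 71.6, and 72.4 CPM, close together where the 10 genes were far apart. The summed astrocyte markers, a list that holds the STAT3 response gene Gfap, were at 105 to 260 CPM in control, 282 to 768 CPM in OIR, and 147 to 439 CPM in treated OIR mice. Müller glia markers summed to 3761 to 5163 CPM in control and 4985 to 5603 CPM in OIR mice, and to 3162 CPM in treated OIR mouse 2. Endothelial markers were at 213 to 229 CPM in control, 324 to 419.8 CPM in OIR, and 269.7 to 399 CPM in treated OIR mice. Pigment epithelium markers were at 222 to 281 CPM in control, at 114 to 262 CPM in OIR mice, and at 147, 290.1, and 334 CPM in treated OIR mice 2, 5, and 10, the reverse of the order of the 10 genes there. Blood cell markers were at 74.6 to 133 CPM in control and 9.45 to 58.1 CPM in OIR mice, and at 169, 122, and 53.8 CPM in treated OIR mice 2, 5, and 10, in the order of the 10 genes. Lens markers were at 123288 CPM in treated OIR mouse 2 and at 11.2 to 960.3 CPM in the other mice. Every gene of these lists had counts in all 9 mice except the lens gene Lim2, which was at 0 in at least 1. The part of these cell types in the differences of the 10 genes was not tested.

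**Figure D3:**
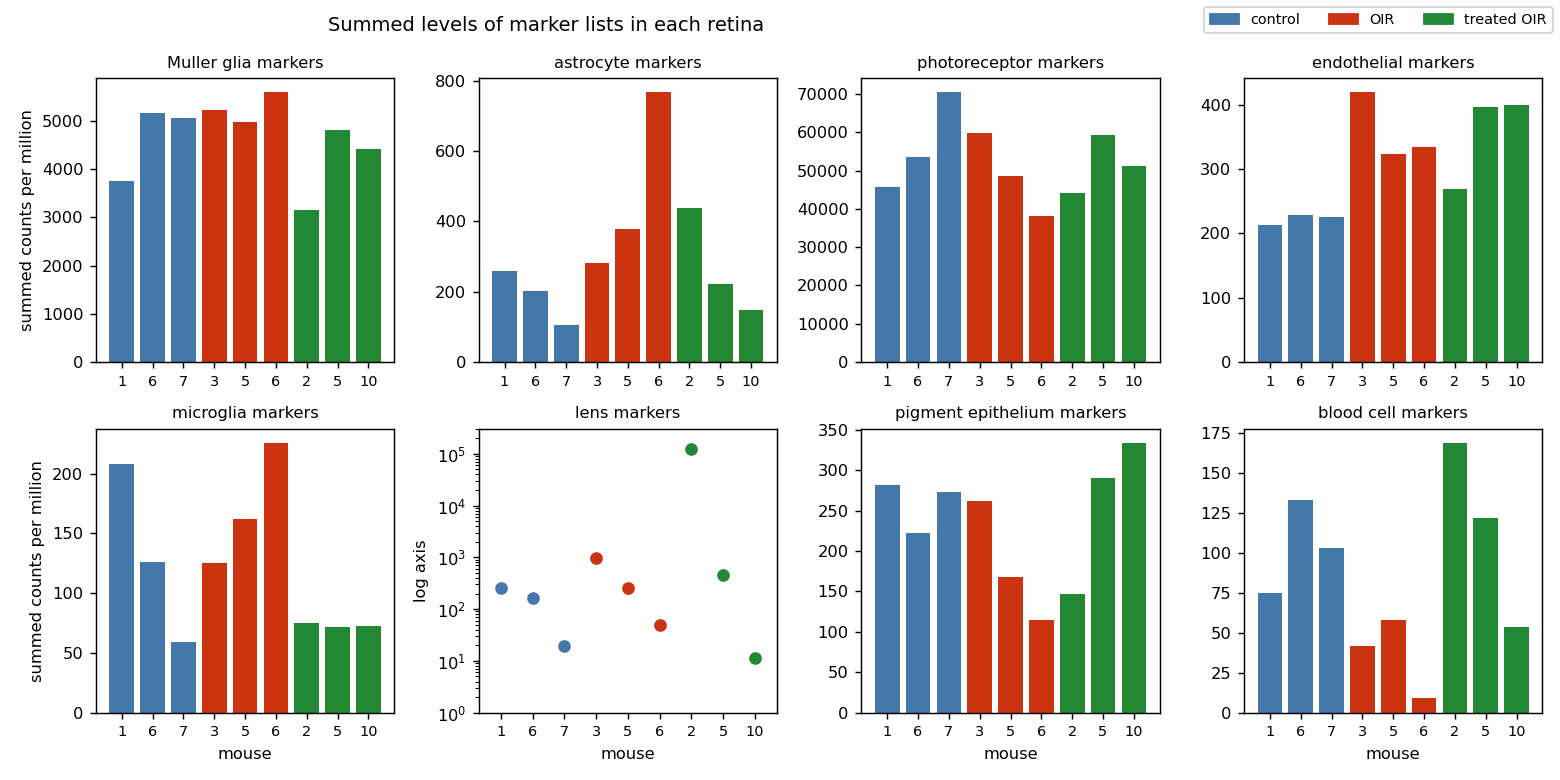
Summed CPM of 8 marker lists in each retina, with mouse numbers on the x axis and colours for the groups. Bars start at 0, and the lens list is drawn as points on a log axis because treated OIR mouse 2 reaches 123288 CPM against at most 960.3 in the other mice.

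Per kilobase of the deposited gene length, which allows levels to be compared between genes, Edn2 (13.3 ± 10.6 CPM per kb, SD, n = 3) and Cebpd (12.7 ± 4.55) were highest in control mice. Stat3 (9.96 ± 2.42), Il6st (9.81 ± 1.27), Fgf2 (7.65 ± 4.02), and Lifr (6.15 ± 0.49) followed, and in this order the mice of each gene overlapped with those of the next. Socs3 (3.69 ± 1.41) lay apart below Lifr. Ednrb (1.41 ± 0.257) and Osmr (1.34 ± 0.714) overlapped with each other, and Lif (0.404 ± 0.235) was lowest.

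In OIR mice the order changed below the top pair. Edn2 and Cebpd were again highest, at 52.3 ± 24.7 and 52.1 ± 32.2 CPM per kb, and Fgf2 came next at 42.3 ± 10.1. Stat3 (23.1 ± 5.50), Socs3 (19.2 ± 17.5), and Il6st (16.2 ± 2.99) overlapped one with the next, and Lifr (8.61 ± 0.672) lay apart below them. Osmr (3.08 ± 0.508) and Ednrb (2.89 ± 0.495) overlapped, and Lif (1.27 ± 1.08) was again lowest. Fgf2 and Socs3 thus stood higher among the 10 levels in OIR mice than in control mice.

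The rest of the pathway was taken from 7 lists, of which 59 genes were tested. In the OIR comparison with control, edgeR called 1 of the 59 higher and 1 lower, and 17 had an unadjusted p below 0.05, against 23.8% of all genes. DESeq2 on the 2 groups called 10 higher and 5 lower, against 15.6% of all genes in either direction. In the treated OIR comparison with control, edgeR called none (19 at an unadjusted p below 0.05, against 18.6% of all genes), DESeq2 on the 2 groups 2 (2.21% of all genes), and limma-voom 5 (5.28%). Without treated OIR mouse 2 edgeR again called none, with 13 at an unadjusted p below 0.05, against 14.2% of all genes. In the treated OIR comparison with OIR, edgeR called none (3 at an unadjusted p below 0.05, against 4.69% of all genes). DESeq2 on the 2 groups and limma-voom also called none, against 0.431% and 0.0057% of all genes. Without treated OIR mouse 2 edgeR called none, with 16 at an unadjusted p below 0.05, against 13% of all genes.

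Of the other IL-6 family ligands, 3 of 8 were tested, and between OIR and control none was called by edgeR or DESeq2 or had an unadjusted p below 0.05. Il6 had no count in any mouse, and Il11, Osm, Cntf, and Il27 were too low to test, with at most 25 counts in a mouse. Clcf1, a ligand of the CNTF receptor, was at 4.44, 3.27, and 1.48 CPM in control mice and at 3.15, 6.57, and 6.12 CPM in OIR mice. Its log2 fold change was 0.77 ± 0.46 (edgeR, adjusted p = 0.335), and that of Ctf1, which encodes cardiotrophin-1, was 0.37 ± 0.33 (adjusted p = 0.532). The groups overlapped for both.

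Of the other IL-6 family receptors, 3 of 5 were tested, and Cntfr, the CNTF receptor subunit, fell in OIR. It was at 52.7, 54.2, and 66.5 CPM in control mice 1, 6, and 7, at 39.8, 33.3, and 34.9 CPM in OIR mice 3, 5, and 6, and at 34.6, 41.0, and 40.3 CPM in treated OIR mice 2, 5, and 10. Both OIR groups lay below all control mice. The log2 fold change between OIR and control was -0.68 ± 0.13 (edgeR, adjusted p = 0.0485). It was -0.58 ± 0.13 between treated OIR and control (adjusted p = 0.109), and -0.50 without treated OIR mouse 2.

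Of 9 JAK-STAT signalling genes edgeR called none between OIR and control, and their median log2 fold change was 0.13. At an unadjusted p below 0.05 there were 2 of the 9, against 23.8% of all genes. Jak2 encodes a kinase bound to gp130. It was at 37.0, 39.9, and 37.4 CPM in control mice and at 48.2, 43.9, and 54.1 CPM in OIR mice. The groups did not overlap, and the log2 fold change was 0.36 ± 0.11 (edgeR, adjusted p = 0.105). The related kinase genes Jak1 and Tyk2 had log2 fold changes of -0.03 ± 0.12 and 0.36 ± 0.16 (edgeR, adjusted p = 0.899 and 0.203). Of 10 JAK-STAT inhibitors other than Socs3 edgeR called none, with 2 at an unadjusted p below 0.05, against 23.8% of all genes. DESeq2 on all 9 mice called Pias1, against 11.3% of all genes. The median log2 fold change of these inhibitors was 0.26. Pias1, which encodes an inhibitor of STAT binding to DNA, had a log2 fold change of 0.32 ± 0.09 (edgeR, adjusted p = 0.0979), and Socs4 one of 0.41 ± 0.16 (adjusted p = 0.164). Both were higher in all OIR mice than in all control mice. These values are small beside the 2.37 of Socs3.

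Of 16 STAT3 response genes, 13 were higher in OIR than in control, against 53.5% of all genes, and the median log2 fold change was 0.72, against 0.03 for all genes. Of these 16 edgeR called 1. Mcl1, a survival gene of the BCL2 family, rose from 118, 119, and 111 CPM in control mice to 169.6, 167, and 199 CPM in OIR mice, and was at 173, 155, and 136 CPM in treated OIR mice 2, 5, and 10. Its log2 fold change was 0.62 ± 0.12 (edgeR, adjusted p = 0.0485). DESeq2 on the 2 groups called 6 of the 16 higher, against 5.64% of all genes, and 1 lower. The lower gene was Bcl2l1, also a survival gene of the BCL2 family. It was at 103, 115, and 124 CPM in control mice and at 93.2, 83.3, and 85.9 CPM in OIR mice. Its log2 fold change was -0.38 ± 0.12 (edgeR, adjusted p = 0.107; DESeq2 on the 2 groups, adjusted p = 0.0225). The summed level of the list was 462 to 1033 CPM in control and 840.4 to 2399 CPM in OIR mice, and 3034, 669.6, and 522 CPM in treated OIR mice 2, 5, and 10, the order of the 10 genes. Lcn2, Serpina3n, and Gfap weighed most in this sum in treated OIR mouse 2, at 1079, 643, and 398 CPM. Between OIR and control, neither edgeR nor DESeq2 on the 2 groups called any of these genes. The study's own selection of genes that rose in these mice also holds Junb, which is on this list.

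The calls of Cntfr and Mcl1 were marginal. Both were lost when any of the 3 control mice, any of the 3 OIR mice, or treated OIR mouse 5 was left out (adjusted p from 0.0857 to 0.189 for Cntfr and from 0.0899 to 0.186 for Mcl1), and Cntfr also without treated OIR mouse 10 (adjusted p = 0.0566). Without treated OIR mouse 2 the adjusted p was 0.00778 and 0.00905.

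Of 6 other endothelin genes edgeR called none in any comparison. Between OIR and control none had an unadjusted p below 0.05, and their median log2 fold change between OIR and control was -0.13. Edn3 was at 8.34 CPM in OIR mouse 5 and at 0.516 to 2.77 CPM in the other mice (log2 fold change 1.46 ± 0.93; edgeR, adjusted p = 0.373). Ednra, the endothelin A receptor of vessel muscle and pericytes, was at 5.55, 3.17, and 2.77 CPM in control mice, 7.91, 4.75, and 3.42 CPM in OIR mice, and 5.33, 10.3, and 12.9 CPM in treated OIR mice 2, 5, and 10. Here mice 5 and 10 lay above mouse 2, the reverse of Ednrb. Between treated OIR and control, the log2 fold change of Ednra was 1.30 ± 0.43 (edgeR, adjusted p = 0.192), and 1.58 without mouse 2. Limma-voom called Ednra in that comparison, against 5.28% of all genes. At an unadjusted p below 0.05 edgeR had 2 of the 6 there, against 18.6% of all genes.

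Of 12 FGF signalling genes edgeR called none between OIR and control. At an unadjusted p below 0.05 edgeR had 5 higher and 2 lower, against 23.8% of all genes in either direction. DESeq2 on the 2 groups called 4 higher and 3 lower, against 15.6% of all genes in either direction. Fgfr4, an FGF receptor, was at 2.17, 2.53, and 1.93 CPM in control mice and at 0.428, 0.513, and 0.225 CPM in OIR mice. Its log2 fold change was -2.49 ± 0.50 (edgeR, adjusted p = 0.0562). These OIR levels lay below the 0.58 CPM of Lif in control mouse 7, a value of 9 counts. The Fgfr4 fold change thus rests on few counts. Spry2, an inhibitor that FGF signalling induces, was at 71.8, 72.9, and 83.6 CPM in control mice and at 105, 93.2, and 97.1 CPM in OIR mice (log2 fold change 0.37 ± 0.10; adjusted p = 0.0829). In both genes the groups did not overlap.

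**Figure D4:**
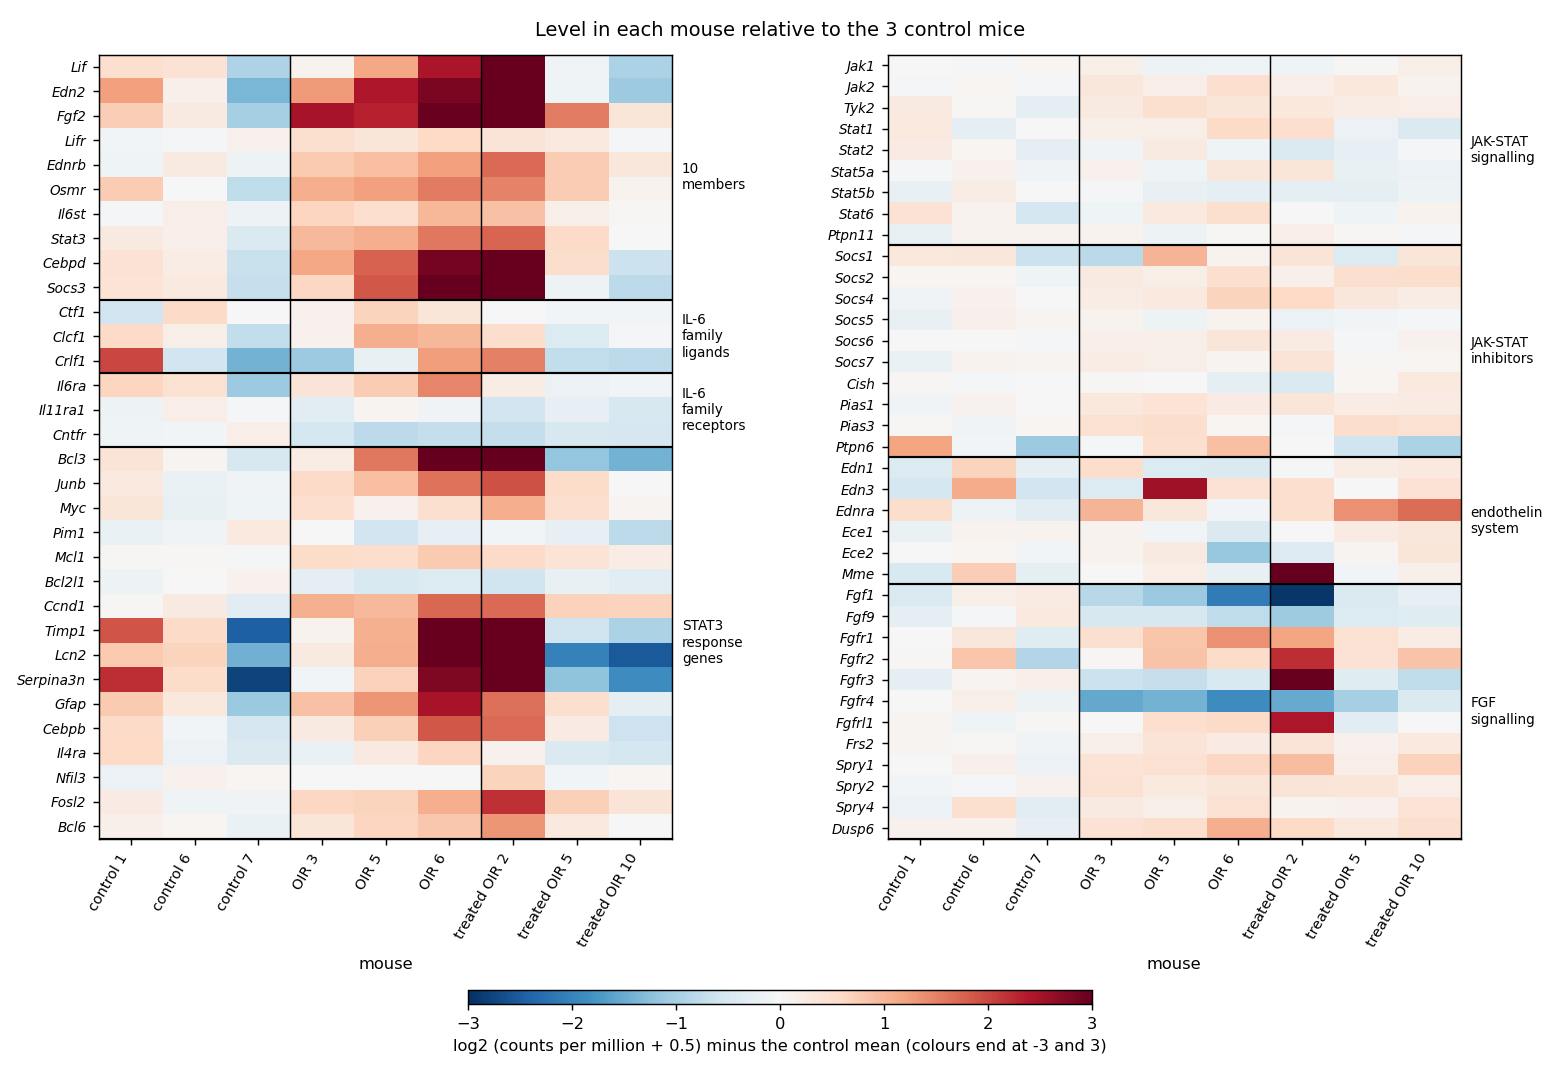
Level of the 10 genes and 59 pathway genes in each mouse, as log2 of CPM plus 0.5 minus the mean of the 3 control mice, with colours that end at -3 and 3. The 10 genes and the STAT3 response genes are reddest in OIR mouse 6 and treated OIR mouse 2, and treated OIR mice 5 and 10 are mixed, with Fgf2 in mouse 5 (135 CPM) above every control mouse and Socs3 in mouse 10 (5.60 CPM) below every control mouse.

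The genes nearest in pattern were taken for Lifr and Fgf2, which had the 2 smallest p values between OIR and control, as the lowest root mean square difference of mean-centred log2 CPM over 9 mice among 13977 other genes. For Lifr these were Vrk3, Imp4, and Hnrnpf, with differences of 0.08, 0.09, and 0.10. For Fgf2 they were Flnc, Lad1, and Hsd17b2, with 0.35, 0.37, and 0.38. Other neighbours were looked at after their values were seen. The gene nearest to Lif was Socs3 and the gene nearest to Socs3 was Lif, with a difference of 0.34, and Cebpd was the second nearest to Socs3, with 0.38. Pcolce, a procollagen processing factor, was nearest to Edn2, with 0.26, and Fgf2os was the third, with 0.42. Such likeness over 9 mice holds group and single-mouse differences alike. Over the 8 mice without treated OIR mouse 2, a measure added after the data were seen, Flnc and Lad1 stayed the 2 nearest to Fgf2 (0.33 and 0.36), followed by Fgf2os (0.36), and Pcolce stayed nearest to Edn2 (0.27). The neighbours of Lifr were then Tmem150c, Glo1, and Vrk3 (0.07, 0.09, and 0.09). Lif had C3 as its nearest gene (0.25) and no longer Socs3, and Socs3 had Nupr1 (0.27), then Lif (0.36) and Cebpd (0.37).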

How the data were processed

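Retinal RNA of 9 mice was sequenced, and each mouse was 1 replicate. P-values test a difference between groups against the spread between these mice. The authors deposited 1 table of counts per gene, in whole numbers that were not normalized. Per the labels, the submitters' processing notes name CASAVA and HISAT. The counting tool, annotation, and strandedness are not given in the sources used here. Of 54409 gene identifiers shared with GENCODE M21, 98.3% have an identical position there, as do all 10 genes, so coordinates are on GRCm38.

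Counts were fitted with edgeR 4.0.16 in R 4.3.3, using TMM factors, the default filter, 1 mean per group, and the quasi-likelihood test with Benjamini-Hochberg adjustment over all genes tested. A gene was called at an adjusted p below 0.05. Log2 CPM used a prior count of 2. DESeq2 1.42.0 and limma 3.58.1 were alternatives. Fits were tested on simulated counts. Pathway genes were named if called in any comparison, and otherwise as the 2 with the smallest p per list between OIR and control. Neighbours were 3 per gene with a mean log2 CPM of at least 1. The 10 genes and all lists were chosen with earlier results of these data known. Figures were made with matplotlib 3.10.9.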

Additional observations from a re-analysis of the deposited data

How the results depend on the processing

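Between OIR and control, edgeR on all 9 mice called 0 of the 10 genes, and each gene kept its direction under all 18 other fits. The size of the difference depended on single mice for some genes. Leaving out 1 mouse gave log2 fold changes of 0.71 to 2.06 for Lif, 1.33 to 2.82 for Socs3, and 1.42 to 2.36 for Cebpd. For these genes the lowest value came without OIR mouse 6. DESeq2 on all 9 mice, edgeR on the 2 groups, and limma-voom with sample quality weights called 6 each (4.36%, 2.88%, and 5.23% of all genes were called higher), and DESeq2 on the 2 groups called 8 (5.64%). No filter gave 1, Fgf2, and the share of all genes called in that fit is not given here. Leaving out 1 mouse gave 0 to 7, and the 7 came without treated OIR mouse 2. Other scalings, the filter of 10 counts in every mouse, removal of crystallin genes, and a fold limit left the count at 0. Lif did not pass the filter of 10 counts and has no value there. Between treated OIR and control the count was 0, except for 1 by DESeq2 on all 9 mice, which called 4.8% of all genes. Between treated OIR and OIR it was 0, except for 6 by DESeq2 on the 2 groups without treated OIR mouse 2. That fit was chosen after seeing the data, and it called 1.96% of all genes lower. The causes were not tested.

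Directions between treated OIR and control depended on treated OIR mouse 2. With limma-voom, the log2 fold changes of Lif, Edn2, and Socs3 were -0.58, -0.35, and -0.32. Leaving out 1 mouse gave ranges of -0.87 to 2.47 for Lif, -0.95 to 2.57 for Edn2, -0.02 to 2.41 for Cebpd, and -0.56 to 2.65 for Socs3. In DESeq2 on the 2 groups without treated OIR mouse 2 these 4 genes had -0.86, -0.93, -0.02, and -0.56. Between treated OIR and OIR, Ednrb was at -0.09 with total counts alone and at -0.27 with limma-voom, where Lif was at -1.65. In DESeq2 on the 2 groups without mouse 2, Lif was at -2.49 and Ednrb at -0.43. Leaving out 1 mouse gave -2.47 to 1.21 for Lif, -2.87 to 0.33 for Edn2, -0.41 to 0.32 for Ednrb, -0.90 to 0.03 for Stat3, -2.03 to 0.49 for Cebpd, and -2.90 to 0.79 for Socs3. Fgf2, Lifr, Osmr, and Il6st kept their direction in all of these fits.

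No paired analysis was possible because no 2 groups share more than 1 replicate number. At 9 counts, Lif in control mouse 7 is near the limit of what the depth resolves. The calls of Cntfr and Mcl1, checked under the same alternatives after the data were seen, were also lost with total counts alone (adjusted p = 0.0877 and 0.052 in edgeR), and that of Mcl1 without crystallin genes (0.0525).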
